A study of Drosophila melanogaster with 10 samples.

Results

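The binding sites of 2 insulator proteins, Mod(mdg4)2.2 and CP190, were compared peak by peak in Kc167 cells, an established line derived from Drosophila melanogaster embryos. All 2678 peaks of the Mod(mdg4)2.2 list and all 2742 peaks of the CP190 list were used, which is 5420 of the 9570 peaks of the 5 lists in the study. A pair of peaks counted as shared when it overlapped by at least 1 bp on genome build dm3. Each class was then split by the presence of a peak of Su(Hw), the third protein of the gypsy insulator, from its own list of 2369 peaks. The positions came from chromatin immunoprecipitation followed by sequencing (ChIP-seq). Mod(mdg4)2.2 was precipitated in 2 libraries, with a guinea pig and a rabbit antibody, and both went into 1 deposited list. CP190 and Su(Hw) were each precipitated in 1 library with a rabbit antibody. The cells were grown at 25 °C, and the labels name no mutation, knockdown or treatment in any library.

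A chromatin insulator is a DNA element, with its bound proteins, that can block an enhancer from acting on a promoter or set a border between chromatin domains. At the insulator of the gypsy retrotransposon, Su(Hw) binds DNA through its zinc fingers, and Mod(mdg4)2.2 and CP190 are recruited with it. Both carry a BTB domain, a fold through which proteins pair with one another. CP190 also works with other DNA-binding insulator proteins, such as CTCF and BEAF, so that it is known from many sites outside the gypsy type.

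The labels place the Mod(mdg4)2.2 and Su(Hw) libraries on the first of 2 chromatin preparations and the CP190 library on the second, each with its own input. A difference between the CP190 list and the others and a difference between preparations cannot be told apart. No list has a replicate, and the read depth of the libraries is not known from the files used. All values below therefore describe these lists, without p-values. Their 95% intervals are Wilson intervals for shares, Newcombe intervals for differences of shares and order-statistic intervals for medians, and they cover counting error over peaks only. Neighbouring peaks are not independent. The cells were a population, so that both proteins at 1 place in the same cell and in different cells cannot be told apart. The identity of the line was not checked, since no expression was measured.

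The first question was how often each protein lay where the other did. CP190 met 1609 of the 2678 Mod(mdg4)2.2 peaks (60.1%, 58.2 to 61.9), and Mod(mdg4)2.2 met 1431 of the 2742 CP190 peaks (52.2%, 50.3 to 54.1). Each shared Mod(mdg4)2.2 peak met a single CP190 peak, and 1571 of the 1609 (97.6%) lay wholly inside it. The dependence on Su(Hw) was unlike in the 2 directions. Mod(mdg4)2.2 was present at 1062 of 1183 CP190 peaks with Su(Hw) (89.8%, 87.9 to 91.4) and at 369 of 1559 CP190 peaks without Su(Hw) (23.7%, 21.6 to 25.8), a difference of 66.1 points (63.2 to 68.7). CP190 was present at 1206 of 1829 Mod(mdg4)2.2 peaks with Su(Hw) (65.9%, 63.7 to 68.1) and at 403 of 849 without it (47.5%, 44.1 to 50.8), a difference of 18.5 points (14.4 to 22.4). A CP190 peak with Su(Hw) but no Mod(mdg4)2.2 was rare, with 121 cases (4.41% of the CP190 list). A Mod(mdg4)2.2 peak with Su(Hw) but no CP190 was not, with 623 cases (23.3% of the Mod(mdg4)2.2 list). CP190 without either partner was the largest of the 4 classes of its list, with 1190 peaks (43.4%). At Su(Hw) peaks, CP190 was found at 1052 of 1597 with Mod(mdg4)2.2 (65.9%) and at 114 of 772 without Mod(mdg4)2.2 (14.8%).

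**Figure D1:**
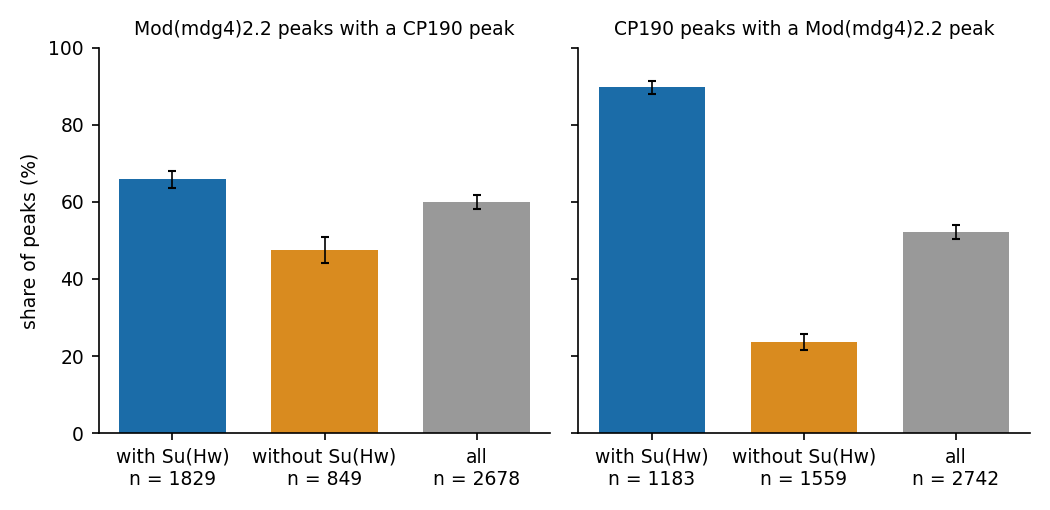
Share of Mod(mdg4)2.2 peaks with a CP190 peak (left) and of CP190 peaks with a Mod(mdg4)2.2 peak (right), in percent, for peaks with Su(Hw), peaks without Su(Hw) and all peaks. Bars are shares of peaks and error bars are Wilson 95% intervals. The right panel spans 89.8% to 23.7%, the left panel 65.9% to 47.5%.

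The Mod(mdg4)2.2 list carries a score for each peak, the authors' own signal value, which runs in this list from 45.7 to 544. Shared peaks had a median score of 137 (quartiles 75.9 and 232), against 72.5 (55.5 and 113) for peaks without CP190, a ratio of 1.89. With Su(Hw) the medians were 173 with CP190 and 91.7 without CP190 (ratio 1.89), and without Su(Hw) they were 68.9 with CP190 and 59.0 without CP190 (ratio 1.17). Peaks with Su(Hw) also scored higher as a whole, with a median of 144 against 63.1 without Su(Hw). The share of CP190 was therefore read at matched score. From the lowest to the highest decile of score, CP190 was present at 38.8%, 38.4%, 44.4%, 49.1%, 52.6%, 60.1%, 71.5%, 76.9%, 79.5% and 89.6% of Mod(mdg4)2.2 peaks. Su(Hw) was present at 34.7% of the peaks in the lowest decile and 98.1% in the highest.

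Within the 7 deciles that held at least 20 peaks of both kinds, CP190 was more frequent with Su(Hw) in 3 and less frequent in 4, and the intervals overlapped in each. In decile 1 the shares were 39.8% with Su(Hw) (93 peaks) and 38.3% without (175 peaks), in decile 4 they were 54.5% (143 peaks) and 42.7% (124 peaks), and in decile 7 they were 70.5% (220 peaks) and 76.6% (47 peaks). Averaged over these 7 deciles, CP190 was at 51.1% of peaks with Su(Hw) and 51.3% of peaks without, a comparison chosen after the data had been seen. In the 3 highest deciles only 16, 6 and 5 peaks lacked Su(Hw), and the shares there carry wide intervals. The difference was thus -0.217 points. Pooled without matching, the same 7 deciles gave 571 of 1052 peaks with Su(Hw) (54.3%) and 379 of 822 without (46.1%), a difference of 8.17 points (3.61 to 12.7), so that leaving out 3 deciles and matching each lowered the 18.5 points given above. Averaged over all 10 deciles, thin ones included, the shares were 60.3% with Su(Hw) and 62.7% without, a difference of -2.41 points. The CP190 list carries no score, so that the same comparison could not be made in the other direction.

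**Figure D2:**
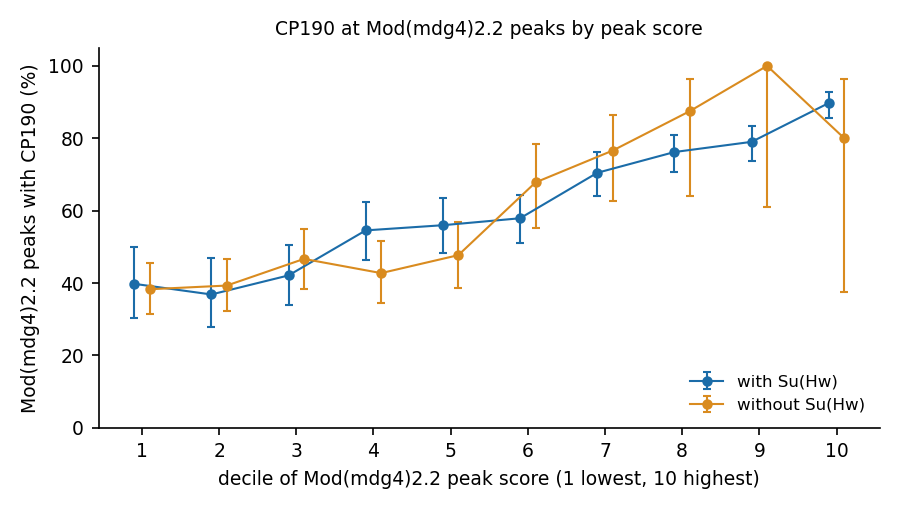
Share of Mod(mdg4)2.2 peaks with CP190 (percent) by decile of Mod(mdg4)2.2 peak score, lowest to highest, for peaks with and without Su(Hw). Points are shares and bars Wilson 95% intervals. The 2 lines cross several times, and the points without Su(Hw) in deciles 8, 9 and 10 rest on 16, 6 and 5 peaks.

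The next question was where in a CP190 peak Mod(mdg4)2.2 lay. CP190 peaks have a median width of 2025 bp, while every Mod(mdg4)2.2 peak is 304 bp wide. The midpoints of shared peaks were nonetheless close, with a median distance of 38 bp (35 to 41.5) and quartiles of 15.5 and 155 bp. Of the 1609 shared Mod(mdg4)2.2 peaks, 922 (57.3%) lay within 50 bp of the CP190 midpoint, 1123 (69.8%) within 100 bp and 1420 (88.3%) within 500 bp. With the stretch from the midpoint of each CP190 peak to its edge cut into 5 equal zones, the innermost held 78.9% of the Mod(mdg4)2.2 midpoints, where an even spread would put 20%. The other 4 zones held 8.95%, 7.46%, 2.55% and 1.31%, going outwards, and 14 midpoints (0.870%) lay beyond the edge. Neither side was preferred, with 807 of the midpoints (50.2%, 47.7 to 52.6) at the lower coordinate.

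Mod(mdg4)2.2 was centred both with and without Su(Hw). The median distance was 37 bp (33 to 41.5) for 1206 shared peaks with Su(Hw) and 41 bp (35.5 to 47) for 403 without it. In CP190 peaks that held a single Mod(mdg4)2.2 peak, a restriction chosen after the data had been seen, it was 25.5 bp (23.5 to 28) with Su(Hw) and 37 bp (32.5 to 42) without Su(Hw), and the intervals did not overlap. Shared peaks without Su(Hw) scored lower, and the distance was larger at lower scores. From the lowest to the highest quartile of score among shared peaks, the median distance was 61.5, 41.75, 35.5 and 25.5 bp. Across the 1609 shared peaks, Spearman's rho between score and distance was -0.22, and these peaks come from the same libraries. Within the first 3 quartiles of score, over all shared peaks, the order by Su(Hw) was the other way round. These quartiles include CP190 peaks with several Mod(mdg4)2.2 peaks, which were 14.1% of shared CP190 peaks with Su(Hw) and 3.52% without it. The restriction to a single Mod(mdg4)2.2 peak was not applied by quartile. The medians were 131 bp (75 to 191) with Su(Hw) and 49.5 bp (40 to 58.5) without it in the lowest quartile, 49.75 bp (33.5 to 64) and 33.75 bp (27.5 to 45) in the next, and 36.25 bp (31 to 43) and 29.75 bp (22.5 to 44.5) in the third. Only in the lowest quartile did the intervals not overlap. The highest quartile had 25.25 bp with Su(Hw) and 42.75 bp without, the last of these from 8 peaks. In 21 pairs Su(Hw) met the CP190 peak but not the Mod(mdg4)2.2 peak inside it, and there the median distance was 719.5 bp. Su(Hw) peaks that met both other proteins had a median width of 2186 bp. The definition of this class, a Mod(mdg4)2.2 peak that misses Su(Hw), therefore already favours places off centre.

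**Figure D3:**
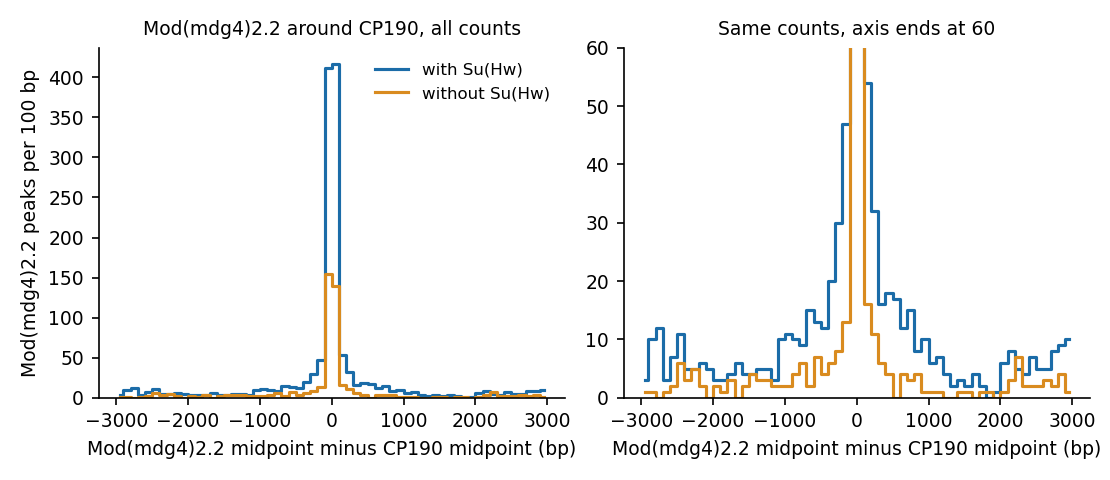
Number of Mod(mdg4)2.2 midpoints in bins of 100 bp by their distance from a CP190 midpoint (bp), to 3 kb on either side, for Mod(mdg4)2.2 peaks with and without Su(Hw). The right panel repeats the left one with its axis cut at 60. The 2 central bins hold 412 and 416 peaks with Su(Hw) and 155 and 140 without, and no bin beyond 1 kb holds more than 12.

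At the 1206 Mod(mdg4)2.2 peaks that met both CP190 and Su(Hw), all 3 midpoints could be compared. The median distance was 37 bp from Mod(mdg4)2.2 to CP190, 79.5 bp (70.5 to 88) from Mod(mdg4)2.2 to Su(Hw) and 79 bp (73 to 88.5) from CP190 to Su(Hw). The closest pair of midpoints was Mod(mdg4)2.2 with CP190 at 590 sites (48.9%), CP190 with Su(Hw) at 309 (25.6%) and Mod(mdg4)2.2 with Su(Hw) at 305 (25.3%), with ties at 2. A CP190 peak with several such Mod(mdg4)2.2 peaks counts once for each. Su(Hw) peaks that met both other proteins had a median width of 2186 bp, against 2061 bp for such CP190 peaks. The part of width in this order was not tested.

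CP190 width differed little between the classes at its median but more at the narrow end. CP190 peaks with Mod(mdg4)2.2 had a median width of 2070 bp (2061 to 2081), against 1976 bp (1964 to 1989) without it. With Su(Hw) the medians were 2061 bp with Mod(mdg4)2.2 and 1965 bp without, and without Su(Hw) they were 2101 bp with Mod(mdg4)2.2 and 1977 bp without. Of the CP190 peaks with Mod(mdg4)2.2, 82 (5.73%) were under 1500 bp wide, against 296 (22.6%) of those without. In the classes of 480 bp, 1000 to under 1500 bp, 1500 to 2000 bp, over 2000 to 2500 bp and over 2500 bp, Mod(mdg4)2.2 was present at 15.1%, 25.5%, 41.7%, 63.3% and 76.8% of CP190 peaks. Among CP190 peaks with Su(Hw) these shares were 53.3%, 73.0%, 86.4%, 93.8% and 93.9%, and among those without Su(Hw) they were 4.59%, 8.52%, 12.5%, 35.6% and 44.2%. A wider peak meets a second list more often through its width alone, and how much of this order comes from that was not tested. With the 5 width classes weighted by their size in the whole CP190 list, the shares were 87.9% with Su(Hw) and 25.6% without.

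The widths follow a pattern that bears on their reading. Exactly 480 bp was the width of 139 CP190 peaks (5.07%), none was wider than 480 bp and narrower than 1000 bp, and 1688 (61.6%) were 1900 to 2200 bp wide. Among the 1268 CP190 peaks with a single Mod(mdg4)2.2 peak, the Mod(mdg4)2.2 midpoint lay a median of 999 bp (995 to 1002) from the nearer edge and 1057 bp (1052 to 1060) from the farther one. In 1130 of them (89.1%) an edge lay 900 to 1100 bp from the Mod(mdg4)2.2 midpoint. By width class, from narrow to wide, this held for 0 of 21, 33 of 61 (54.1%), 282 of 309 (91.3%), 785 of 835 (94.0%) and 30 of 42 (71.4%). At widths near 2000 bp a centred peak has its edges about 1 kb away from the width alone. In the class of 1000 to under 1500 bp the Mod(mdg4)2.2 midpoint was a median of 280.5 bp off centre, 328 bp from the nearer edge and 910 bp from the farther one. In peaks over 2500 bp with a single Mod(mdg4)2.2 peak it was 418 bp off centre, and here the nearer edge was at 1052 bp and the farther at 1942 bp. At 480 bp the distance from the midpoint was 25 bp (21 peaks). A distance of about 1 kb between Mod(mdg4)2.2 and a CP190 edge thus recurred over most widths, and the part of the peak caller in it was not tested.

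**Figure D4:**
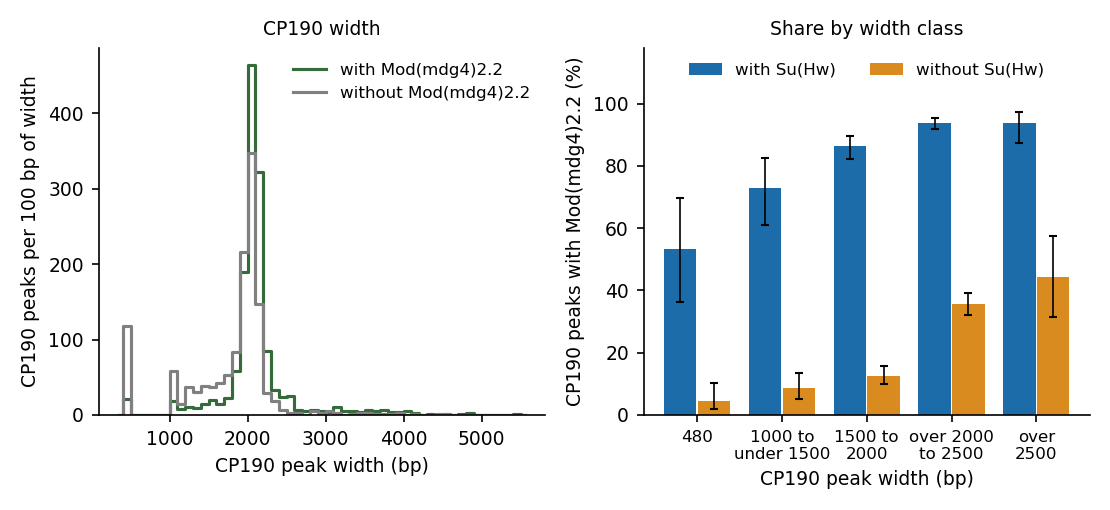
Left, number of CP190 peaks per 100 bp of width (bp), with and without Mod(mdg4)2.2. Right, share of CP190 peaks with Mod(mdg4)2.2 (percent) by width class (bp), with and without Su(Hw), with Wilson 95% intervals. The peaks of 480 bp stand apart on the left, and on the right the bars with Su(Hw) run from 53.3% to 93.9% and those without from 4.59% to 44.2%.

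Most shared CP190 peaks held 1 Mod(mdg4)2.2 peak. Of all CP190 peaks, 1268 held 1, 150 held 2 and 13 held 3 or more, with 4 as the highest number. More than 1 was found in 163 of the 1431 shared CP190 peaks (11.4%), a share that was 4.04% with midpoints no more than 500 bp apart and 2.15% with all peaks resized to 300 bp. It was found in 150 of 1062 shared CP190 peaks with Su(Hw) (14.1%, 12.2 to 16.3) and in 13 of 369 without Su(Hw) (3.52%, 2.07 to 5.93). All 13 CP190 peaks with 3 or more had Su(Hw), although 149 of the 150 peaks with several Mod(mdg4)2.2 peaks and Su(Hw) met a single Su(Hw) peak. Median CP190 width was 1976, 2059, 2368 and 3896 bp for 0, 1, 2 and 3 or more Mod(mdg4)2.2 peaks. Where several lay in 1 CP190 peak, their closest midpoints were a median of 755 bp apart (671 to 827, range 200 to 2634). They stood on both sides of the CP190 midpoint in 132 of 163 cases (81.0%). The highest score was a median of 2.21 times the lowest, and the peak of highest score was also the one nearest the CP190 midpoint in 103 cases (63.2%, 55.6 to 70.2). Its median distance from that midpoint was 235.5 bp, against 547.5 bp for the nearest of the others. With only 2 peaks in 150 of these 163 cases, the highest would often be the nearest without any link between score and position.

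The unshared peaks were mostly far from any peak of the other list rather than just out of reach. Binding too weak to be called counts as absent here, and the gap that the density of each list alone would give was not computed. Of 1065 Mod(mdg4)2.2 peaks without CP190 on chromosomes or scaffolds where CP190 had a peak, 58 (5.45%) had a CP190 edge within 1000 bp, 296 (27.8%) within 5 kb and 472 (44.3%) within 10 kb. The median gap was 12454 bp (11212 to 13440), with 12089 bp for those with Su(Hw) and 12845.5 bp for those without. Of 1311 CP190 peaks without Mod(mdg4)2.2, 24 (1.83%) had a Mod(mdg4)2.2 edge within 1000 bp and 172 (13.1%) within 5 kb, and the median gap was 23407 bp (21599 to 25227). Of these, the 121 with Su(Hw) had a Mod(mdg4)2.2 edge within 1000 bp in 12 cases (9.92%, 5.76 to 16.5), against 12 of 1190 without Su(Hw) (1.01%, 0.578 to 1.75). Even in the highest decile of Mod(mdg4)2.2 score, 28 of 268 peaks lacked CP190, and only 2 of these 28 had a CP190 edge within 1000 bp.

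Spacing to the nearest peak of the same list was compared next. The median distance to the nearest midpoint of the same list was 14005.5 bp (13110.5 to 15200.5) for CP190 peaks with Mod(mdg4)2.2 and 14944 bp for those without (14039.5 to 15990), a difference of -939 bp (-2315 to 560). The interval of this difference excluded 0 with midpoints no more than 500 bp apart (-1689 bp, -2927 to -151), with peaks resized to 300 bp (-1768 bp, -2983 to -177) and with the top 50% of Mod(mdg4)2.2 peaks (-1955 bp, -3102 to -262). For Mod(mdg4)2.2 peaks it was 8655 bp with CP190 and 9506 bp without. Among Mod(mdg4)2.2 peaks with CP190, however, it was 6939.5 bp (5827 to 7910) with Su(Hw) and 15125 bp (12642 to 17712) without Su(Hw). Among Mod(mdg4)2.2 peaks without CP190 it was 9942 bp (8710 to 11580) with Su(Hw) and 8469 bp (6857 to 10324) without, intervals that overlap. Within the peaks without Su(Hw), those with CP190 were therefore the more widely spaced. The class with both partners includes the several peaks of a single CP190 peak, and a neighbour within 2 kb was present for 28.4% of it, against 10.2% of Mod(mdg4)2.2 peaks with CP190 and without Su(Hw). Along a chromosome, the next CP190 peak also had Mod(mdg4)2.2 after 853 of 1427 shared CP190 peaks (59.8%, 57.2 to 62.3) and after 574 of 1306 unshared ones (44.0%, 41.3 to 46.7), while the share over all CP190 peaks was 52.2%. For Mod(mdg4)2.2 peaks, the share with CP190 was 64.1% after shared peaks and 54.3% after unshared ones, while it was 60.1% over the whole list. With neighbours inside 1 CP190 peak not counted, it was 59.6% (57.0 to 62.1) after shared peaks and 54.3% (51.3 to 57.3) after unshared ones. The share over the whole list still counts those neighbours, so it is no like reference for this last pair. The longest run of consecutive shared CP190 peaks was 14, on 3L.

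The shares were compared between the chromosome arms. CP190 was present at 60.6% of Mod(mdg4)2.2 peaks on X and at 60.7%, 62.3%, 61.6% and 58.0% on 2L, 2R, 3L and 3R. Mod(mdg4)2.2 was present at 49.0% of CP190 peaks on X (44.9 to 53.1) and at 50.6%, 49.5%, 53.6% and 57.1% on the same 4 arms. The interval on 3R (53.2 to 61.0) lay just above that on X. X minus the 4 autosomal arms gave 0.172 points (-4.56 to 4.78) for Mod(mdg4)2.2 peaks and -3.96 points (-8.57 to 0.663) for CP190 peaks, both intervals including 0. With all peaks resized to 300 bp, the CP190 difference was -5.05 points (-9.60 to -0.423), an interval that excludes 0. With Su(Hw) present, Mod(mdg4)2.2 was at 87.7% to 92.0% of CP190 peaks on every arm, and without Su(Hw) at 22.0% to 27.2%. The median distance between midpoints was 52.5 bp on X (40 to 71.5), against 36 bp (32.5 to 39.5) on the autosomal arms, intervals that just fail to overlap. Shared CP190 peaks stood at 12.4 per Mb on X and 11.9 per Mb on the autosomal arms, with the highest peak end over the 5 lists as the length of each. Chromosome 4 had 12 Mod(mdg4)2.2 peaks, 8 of them with CP190. The heterochromatic scaffolds and the unplaced sequence had 22 Mod(mdg4)2.2 peaks, of which 3 had CP190, and 5 CP190 peaks, of which 3 had Mod(mdg4)2.2.

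**Figure D5:**
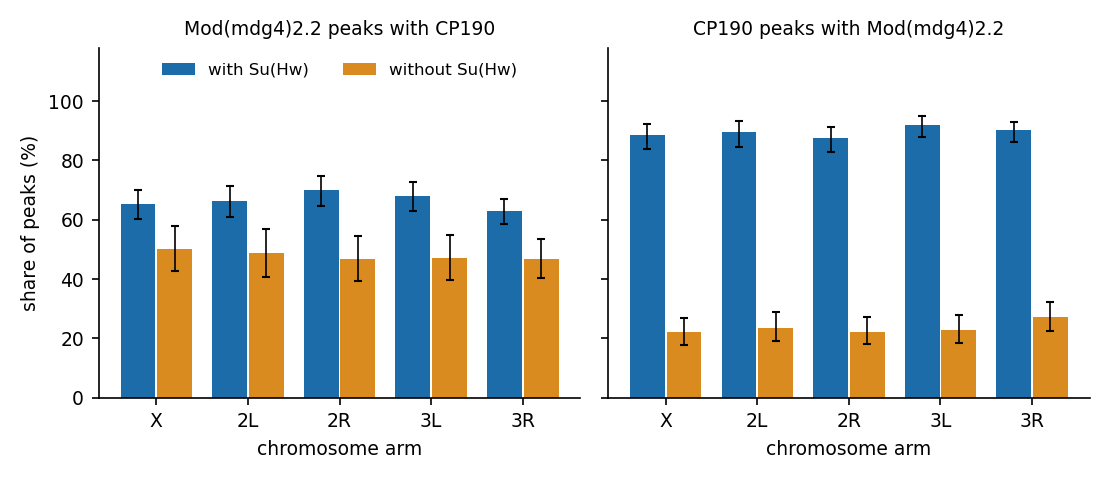
Share of Mod(mdg4)2.2 peaks with CP190 (left) and of CP190 peaks with Mod(mdg4)2.2 (right), in percent, on X and the 4 autosomal arms, with and without Su(Hw). Error bars are Wilson 95% intervals. Within each panel the arms differ less than the 2 Su(Hw) classes, which on the right are 87.7% to 92.0% and 22.0% to 27.2%.

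The lists of 2 RNA-binding proteins of the study, Rump and Shep, are readouts that did not enter the choice of peaks. Rump, an hnRNP M family protein, was at 238 of 1206 Mod(mdg4)2.2 peaks with both CP190 and Su(Hw) (19.7%, 17.6 to 22.1), against 23 of 623 with Su(Hw) and without CP190 (3.69%, 2.47 to 5.48). Without Su(Hw), Rump was at 2.23% of Mod(mdg4)2.2 peaks with CP190 and at 2.24% of those without. These classes differ in score, as given above. Within the highest decile of Mod(mdg4)2.2 score, Rump was at 177 of the 236 peaks with Su(Hw) and CP190 (69.1% to 80.1%) and at 16 of the 27 with Su(Hw) and without CP190 (40.7% to 75.5%), and those intervals overlap. In decile 9, Rump was at 46 of 207 peaks with Su(Hw) and CP190 (22.2%, 17.1 to 28.4). Of the peaks there with Su(Hw) and without CP190, 5 of 55 had Rump (9.09%, 3.95 to 19.6). The intervals overlap here too, while the share was higher with CP190 in both deciles. Overlap of 2 separate intervals does not measure a difference, and no interval of the difference was computed here. Whether these differences exceed counting error was therefore not tested. Shep, known to act on the gypsy insulator in the nervous system, was more frequent where CP190 was missing, in the class without Su(Hw). It was at 4.89% of Mod(mdg4)2.2 peaks with CP190 and Su(Hw) and at 4.98% of those with Su(Hw) and without CP190. Without Su(Hw), Shep was at 60 of 403 Mod(mdg4)2.2 peaks with CP190 (14.9%, 11.7 to 18.7) and at 139 of 446 without CP190 (31.2%, 27.0 to 35.6). In the 5 highest deciles of Mod(mdg4)2.2 score these last shares were 12.0% of 100 peaks with CP190 and 45.5% of 33 without, and in the 5 lowest deciles 15.8% of 303 and 30.0% of 413. In the CP190 list, Rump was at 240 of 1431 peaks with Mod(mdg4)2.2 (16.8%) and 3 of 1311 without it (0.229%). Among CP190 peaks with Su(Hw), Shep was at 6.87% with Mod(mdg4)2.2 and 14.0% without it. Among those without Su(Hw), it was at 19.0% with Mod(mdg4)2.2 and 15.5% without it.

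Single regions are given by their dm3 positions, counted from 1, arm 2R was left out, and genes at these places were not analysed here. The highest score among Mod(mdg4)2.2 peaks with CP190 and Su(Hw), 544, was at chr3R:3807143-3807446, inside the CP190 peak chr3R:3806278-3808364 and 26.5 bp from its midpoint. The second, 537, was at chrX:18922669-18922972, 4 bp from the midpoint of a CP190 peak of 2154 bp. The third, 489, was at chrX:20631343-20631646, and all 3 had Rump and no Shep. Without Su(Hw), the highest scores with CP190 were 369 at chrX:18529312-18529615, 353 at chrX:20396019-20396322 and 299.6 at chr3L:3178320-3178623, at 27.5, 23.5 and 81.5 bp from the CP190 midpoint. The largest distance from the CP190 midpoint among these 6 sites was 108.5 bp. They were picked by score, and the distance was smaller at higher scores over all shared peaks, so they are examples only.

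The highest score without CP190, 435, was at chr3L:15802967-15803270, with Su(Hw) and Rump, and the nearest CP190 edge was only 74 bp away. The next, 377 at chr3R:5945829-5946132, had Su(Hw) and Rump, and the nearest CP190 edge was at 8893 bp. The third, 371 at chr3R:14870334-14870637, had neither Su(Hw) nor Rump, and the nearest CP190 edge was at 29318 bp.

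Among CP190 peaks, chr2L:2954815-2959006 held 4 Mod(mdg4)2.2 peaks, the most of all, and 1 Su(Hw) peak. Their scores along the chromosome were 96.7, 46.4, 228 and 49.5, and the highest was the nearest to the midpoint, at 332 bp. In chrX:18213094-18217668, 4575 bp wide, 3 Mod(mdg4)2.2 peaks had scores of 309, 363 and 124, and the middle one was 196.5 bp from the midpoint. In chrX:10452481-10456855, by contrast, the highest of 3, with 308, was 1179.5 bp from the midpoint. The 3 widest CP190 peaks without Mod(mdg4)2.2 were all on X, at chrX:11241008-11245570, chrX:7826414-7830878 and chrX:1712139-1716332. None of them had Su(Hw), and their nearest Mod(mdg4)2.2 edges were at 26969, 124125 and 45155 bp. The windows of 100 kb with the most shared CP190 peaks, 8 each, were chr2L:20200001-20300000, with 11 Mod(mdg4)2.2 peaks, and chr3R:18100001-18200000, with 9. In the first, 7 of the 8 shared CP190 peaks had Su(Hw), and in the second 6 of 8.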

How the data were processed

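ChIP-seq peak lists of Kc167 cells were used as deposited, 1 list per factor. The submitters' processing notes name Bowtie 0.12.8, Picard 1.77, Trimmomatic 0.20, bedtools 2.17.0 and cutadapt 1.1, with build dm3. How peaks were called, at which threshold, and how 2 libraries became 1 list was not given in the sources used here. As deposited, the Mod(mdg4)2.2 list follows the narrowPeak layout, with a signal value (the score) and a −log10 of a q-value per peak, as the authors wrote them. The highest q is 0.00624. The deposited CP190 and Su(Hw) lists hold positions only. Starts are counted from 0 in the deposited files.

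Overlaps, distances and intervals were computed with Python 3.11.15, NumPy 2.4.6, SciPy 1.17.1 and pandas 2.3.3, and plotted with matplotlib 3.10.9. The overlap, distance and interval steps were tested on simulated data. Su(Hw) was called at a Mod(mdg4)2.2 or a CP190 peak by an overlap of 1 bp. A distance refers to the midpoint of the CP190 peak met. No test was run, since each factor has 1 list. Regions were named by a rule: the 3 Mod(mdg4)2.2 peaks of highest score in each of 3 classes (with CP190 and Su(Hw), with CP190 and without Su(Hw), without CP190), the 3 CP190 peaks with most Mod(mdg4)2.2 peaks, the 3 widest without any and 2 windows, on 2L, 3L, 3R, X and 4. The share averaged over width classes was weighted by class size. The members, classes and comparisons were chosen with earlier results of these data known. Alternatives were other overlap rules, peaks resized to 300 bp, the top 50% of either list, the 5 large arms and Su(Hw) within 1 kb.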

Additional observations from a re-analysis of the deposited data

How the results depend on the processing

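Of 78 values recomputed under alternatives, 45 stayed inside the interval of the value reported, 31 left it and 2 changed sign. With midpoints no more than 500 bp apart, the share of Mod(mdg4)2.2 peaks with CP190 was 53.0% and that of CP190 peaks with Mod(mdg4)2.2 was 49.7%. The difference by Su(Hw) for CP190 peaks was 63.2 points, the distance with Su(Hw) 28.5 bp and the share with more than 1 Mod(mdg4)2.2 peak 4.04%. With peaks resized to 300 bp these 5 values were 49.8%, 47.6%, 61.6 points, 25.5 bp and 2.15%. The distance without Su(Hw) was then 34.75 bp and the width difference 76 bp. These rules drop off-centre peaks by their construction. With the top 50% of Mod(mdg4)2.2 peaks the 2 shares were 75.5% and 34.7%, and the difference by Su(Hw) for Mod(mdg4)2.2 peaks was 0.351 points (-6.67 to 8.67). The distances with and without Su(Hw) were 32 and 33 bp, the share with more than 1 was 5.78%, the width difference 77 bp and the score ratio 1.35. With the widest 50% of CP190 peaks the 2 shares were 39.8% and 66.4%, the differences by Su(Hw) 9.19 points for Mod(mdg4)2.2 and 56.4 points for CP190 peaks, the share with more than 1 was 15.7% and the spacing difference -3334 bp. Among alternatives chosen after seeing the data, the difference by Su(Hw) for Mod(mdg4)2.2 peaks was 8.17 points in the 7 score deciles with at least 20 peaks of both kinds, -0.217 points as a mean over these deciles and -2.41 points as a mean over all 10, while the mean over width classes gave 62.3 points for CP190 peaks. The distance with Su(Hw) was 25.5 bp in CP190 peaks with 1 Mod(mdg4)2.2 peak. Without CP190 peaks of 480 bp, the share of CP190 peaks with Mod(mdg4)2.2 was 54.2% and the width difference 77 bp. Keeping 50% of 1 list can, by construction, only lower the share of the other list that meets it. For the other changes, where no construction is named, the cause was not tested. The difference between X and the autosomal arms for CP190 peaks ran over the alternatives from -5.20 to -1.92 points, and its interval excluded 0 with peaks resized to 300 bp alone. No paired analysis was possible because each factor has a single list. Reads per library are unknown, so what depth limits in either list cannot be given.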

Other observations

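The distance between Su(Hw) and Mod(mdg4)2.2 midpoints also differed by CP190, as did Su(Hw) width where Mod(mdg4)2.2 was present. At Mod(mdg4)2.2 peaks with Su(Hw), the midpoints of these 2 factors were a median of 79.5 bp (70.5 to 88) apart at 1206 sites with CP190, against 48 bp (42.5 to 59) at 623 sites without CP190. A Su(Hw) or CP190 peak with several Mod(mdg4)2.2 peaks counts once for each, and no restriction to single ones was applied here. Su(Hw) peaks with Mod(mdg4)2.2 had a median width of 2186 bp (2170 to 2202) with CP190 and 2118 bp (2099 to 2143) without CP190. Su(Hw) peaks without Mod(mdg4)2.2 were narrower, with medians of 1985.5 bp (1947 to 2009) with CP190 and 2002.5 bp (1994 to 2013) without, intervals that overlap. These medians come from 114 and 658 peaks, and the 2 differences in width were not compared with each other. A wider Su(Hw) peak meets a second list more often through its width alone, and that part was not tested. At CP190 peaks with Su(Hw), the midpoints of CP190 and Su(Hw) were a median of 74.25 bp (68.5 to 82) apart at 1062 peaks with Mod(mdg4)2.2, against 190.5 bp (130.5 to 268) at the 121 without Mod(mdg4)2.2. These are descriptions of the lists. The 1206 and 623 sites also differed in Mod(mdg4)2.2 score, with medians of 173 and 91.7. Their distances were not compared at matched score. The comparisons over Su(Hw) peaks or CP190 peaks could not be matched by the strength of those peaks, since the 2 lists carry no score.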
